A study of Drosophila melanogaster with 36 samples.

Results

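The comparison described here is pair C, a high wing-shape line, C1, set against its low counterpart, C2, in Drosophila melanogaster wing imaginal discs. Its members were chosen by array title: 3 Affymetrix expression arrays of C1 and 3 of C2, which make 6 of the 36 arrays of the series. The study measured gene expression in lines selected in opposite directions for the shape of the wing, with 3 arrays for each of 12 lines. The other pairs of the same kind are A1 and A2, B1 and B2, and D1 and D2, in which the number 1 marks the high line and the number 2 the low line. The rest of the series is the founder pair, H and L, and a pair from a separate population labelled CA.

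C1 and C2 descend from the same hybrid population. The founders H and L came from a wild Massachusetts sample by 20 generations of divergent selection and were then made isogenic. H and L were crossed to found 4 populations, A to D, each of which mixed for 34 generations, was selected again in both directions for 25 generations and was inbred for 10 generations. C1 is therefore 1 inbred line and C2 is 1 inbred line, so that effects of drift in population C and of selection cannot be told apart. Wing discs of the third instar were dissected at a median of 6.2 h before pupariation from animals kept at 20 °C. Each array was hybridised with RNA of 100 discs. Nothing in the labels gives the culture of each tube, and the p-values measure the spread between these arrays, which may be technical.

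The wing imaginal disc is the epithelial sac of the larva that gives rise to the adult wing blade, hinge and notum, and it carries muscle precursors, tracheal branches and a few blood cells with it. Vein and intervein territories of the wing are laid down in the disc by Hedgehog, Dpp, EGFR and Notch signalling through transcription factors such as kni, ara and bs. A rising ecdysone titre at the end of the third instar sets off the change in expression that leads to pupariation.

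Signals are the deposited MAS5 intensities, in arbitrary units scaled to a common target, and every difference below is a log2 difference, so that 1 is a 2-fold change. Tests were made with limma over all 36 arrays for 9385 probe sets in the brighter part of the array, and a probe set was called at a Benjamini-Hochberg adjusted p below 0.05 over all 9385. Of these, 7867 map to 1 gene symbol. Only 3 arrays per line limit the precision of each value. Within pair C, C1 replicate 3 stood apart by RNA quality and salivary gland markers, and C1 replicates 1 and 2 by fat body markers. C1 replicate 3 had 3'/5' ratios of the actin, GAPDH and eIF-4a controls of 3.54, 4.46 and 4.42, against 1.65 to 1.93, 2.81 to 3.22 and 2.14 to 2.41 in the other 2 C1 arrays, and against 1.52 to 1.70, 2.53 to 2.75 and 1.80 to 2.33 in the C2 arrays. The only other array of that kind was A2 replicate 3. The summed signal of 8 salivary gland and gut genes was 656, 1315 and 9457 in C1 and 1925, 2645 and 2004 in C2, so that C1 replicate 3 was high. The summed signal of 6 fat body genes was 7763, 7440 and 1391 in C1 and 948, 816 and 866 in C2, so that the other 2 C1 arrays were high. Such signals were not confined to C1. The salivary gland and gut sum was 18524 in D2 replicate 1, an array used in the comparison with pair D. The fat body sum was 6415 in replicate 3 of the CA low line. All 12 wing disc markers on the array passed the filter, with sums of 145329 to 156172 in C1 and 135597 to 143209 in C2. In every pair the high line carries the lower title numbers, and whether that order matters cannot be told apart from high against low.

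The first question was how far C1 and C2 differ. C1 and C2 differed at 1329 of 9385 probe sets (14.2%), of which 638 (6.8%) were higher and 691 (7.36%) lower in C1. The same test called 1476 probe sets in pair A (15.7%), 1189 in pair B (12.7%) 943 in pair D (10%), 2106 in the founder pair (22.4%) and 1597 in the CA pair (17%). The count of pair C lay between those of pairs A and B. At 1212 of the 1329 called probe sets the C1 and C2 arrays did not overlap (589 higher and 623 lower). Among all tested probe sets, called or not, 26.6% showed no overlap. A difference of at least 2-fold was found at 229 called probe sets (103 higher and 126 lower), and of at least 4-fold at 58 (26 higher and 32 lower). Without C2 replicate 3 the number of called probe sets was 837. The 36-array fit includes the C1 array with the raised 3'/5' ratios, and leaving it out gave 1182.

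Whether pair C differs in its own way was tested by the contrast of C1-C2 with the mean of the differences in pairs A, B and D. It called 753 probe sets (8.02%), 386 (4.11%) with the more positive value in pair C and 367 (3.91%) with the more negative. The same contrast for the other pairs, each set against the mean of its 3 counterparts, called 523 for pair A (5.57%), 406 for pair B (4.33%) and 258 for pair D (2.75%). A stricter set was then formed from probe sets that were called in pair C and whose difference also departed from A, from B and from D, each tested alone, in the direction of pair C. It held 73 probe sets (0.778%), with 31 (0.33%) higher and 42 (0.448%) lower in C1, and is referred to as particular to pair C. Of the 73, 60 map to 1 symbol and stand for 57 genes. The set depended on single arrays: it held 37 probe sets without C2 replicate 3, 44 without C2 replicate 2, 141 without C2 replicate 1 and 59 without C1 replicate 3.

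**Figure D1:**
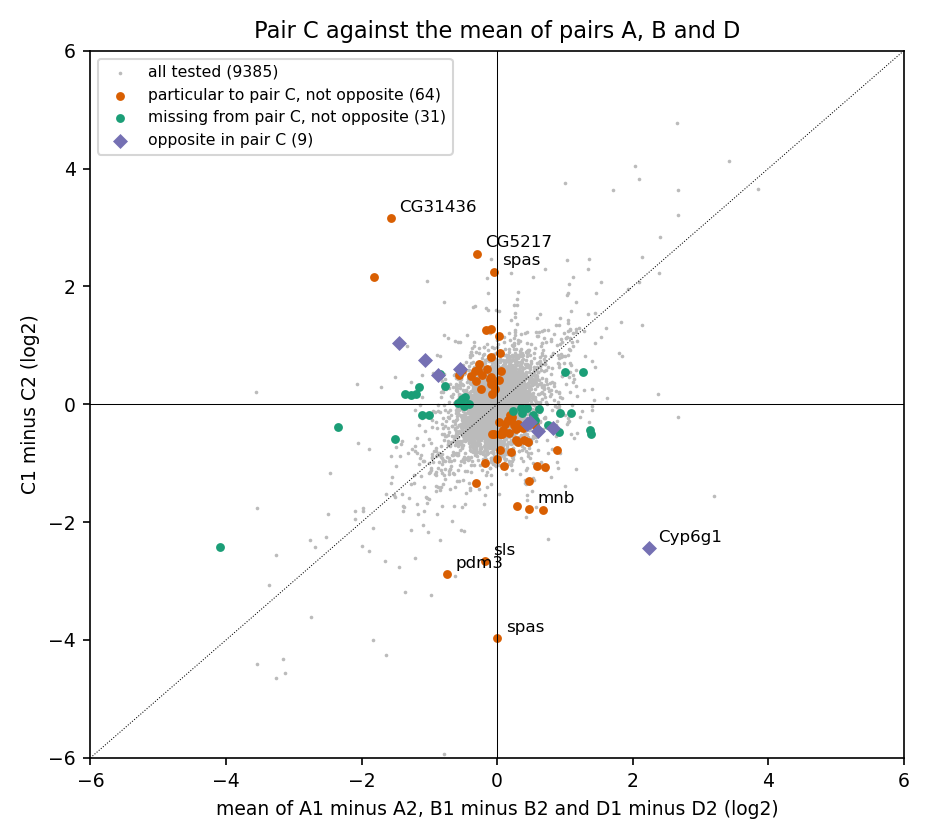
Each point is a probe set, with the mean log2 difference (high line minus low line) of pairs A, B and D on the x axis and the log2 difference C1-C2 on the y axis; the dotted line marks equal values. The 64 orange points are particular to pair C and lie away from the dotted line, the 9 purple diamonds have the opposite sign in pair C, and the 31 green points differ in A, B and D but less or not at all in pair C.

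Within that set, 9 probe sets (0.0959%) were called in all 4 pairs with one sign in A, B and D and the opposite sign in C, 4 of them higher (0.0426%) and 5 lower (0.0533%) in C1. Of the 9, 6 map to 1 symbol, namely Cyp6g1, Prosap, Aps, FoxK, CG7600 and Obp56a, 1 maps to several and 2 to none. The largest was Cyp6g1, a cytochrome P450 known for metabolising insecticides. Cyp6g1 had signals of 113.6, 65.1 and 37.1 in the C1 arrays, against 369.6, 313.6 and 376.9 in the C2 arrays. All 3 C1 arrays lay below all 3 C2 arrays. The difference C1-C2 was -2.44 (SE 0.55, adjusted p = 0.0023), whereas the high line was above the low line by 1.74 in pair A, 1.72 in pair B and 3.29 in pair D, and H was above L by 5.21. Pair C departed from the mean of the others by -4.69 (SE 0.64, adjusted p = 8.8e-06). C1 stood 3.95 below the mean of A1, B1 and D1 (log2 difference -3.95), while C2 was above the mean of A2, B2 and D2 by a difference of 0.74 that was not called (adjusted p = 0.56).

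The other reversed genes moved less in pair C. Prosap, a Shank-family scaffold protein, had signals of 28256, 27663 and 40551 in C1, against 12596, 19384 and 15055 in C2, at one probe set. The C1 arrays were all higher, by 1.04 (SE 0.14, adjusted p = 3.07e-06), where A, B and D gave -1.50, -1.70 and -1.14. A second Prosap probe set went the other way, with 4175.5, 2970.3 and 4938 in C1 and 10361, 4401.9 and 6633.2 in C2. Its difference of -0.77 (adjusted p = 0.0255) was lost without either C1 replicate 1, C1 replicate 2, C2 replicate 1 or C2 replicate 3, with a largest adjusted p of 0.214, and the groups overlapped. At the remaining Prosap probe set C1 and C2 did not differ beyond their spread (0.17, adjusted p = 0.28), while A, B and D gave -1.22, -1.25 and -1.12. The 3 probe sets of this gene therefore gave a higher, a lower and an uncalled value in C1.

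Aps, a diphosphoinositol polyphosphate phosphohydrolase, had 20824, 19842 and 23610 in C1 and 18005, 14568 and 13278 in C2. It was higher in C1 by 0.50 (adjusted p = 0.0107), against -0.83, -1.12 and -0.65 in A, B and D, and the call was lost without C1 replicate 3 (adjusted p = 0.0582) or C2 replicate 3 (adjusted p = 0.0926). Among the reversed genes lower in C1, FoxK, a forkhead transcription factor, had 8915.6, 8492 and 5847.1 in C1 and 9227.1, 11837 and 10422 in C2, a difference of -0.45 (adjusted p = 0.00451) against 0.76, 0.55 and 0.50 in the other pairs. It too was not called without C1 replicate 3, at -0.26 (adjusted p = 0.0738), and that array was the lowest of the 6. The other FoxK probe set tested gave 0.12 (adjusted p = 0.917), without a called departure (-0.81, adjusted p = 0.478). CG7600 (-0.30, against 0.54, 0.54 and 0.38) and Obp56a (-0.40, against 0.59, 0.94 and 0.94), a member of the odorant-binding protein family, had smaller reversals. The CG7600 call was lost without C2 replicate 2 (adjusted p = 0.0686) or with median centring (adjusted p = 0.184), and the Obp56a call was lost without any 1 of 5 of the 6 arrays, with adjusted p up to 0.162.

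At some further genes particular to pair C the sign in A, B and D was the other way without a call in each. Such genes are not among the 9, and 3 of them, myd, CRMP and CG34398, are given here. myd had 786.2, 752.8 and 502.1 in C1 and 1430.3, 1453.8 and 1318.7 in C2. The groups did not overlap, and the difference of -1.07 (adjusted p = 0.00836) stood against 0.50, 0.99 and 0.64 in A, B and D. Without C1 replicate 3 it was -0.86 (adjusted p = 0.0605). CRMP was higher in C1 by 0.50 and CG34398 by 0.58, and both calls failed without C1 replicate 3 or C2 replicate 3, that of CRMP also without C1 replicate 1 or with median centring.

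The difference largest in size among the 73 was at spas, the gene of spastin, which severs microtubules. One spas probe set had 373.3, 74.5 and 384.8 in C1 and 2925.1, 3747.6 and 3716.1 in C2, a difference of -3.96 (SE 0.32, adjusted p = 8.1e-11), against 0.08, -0.17 and 0.11 in A, B and D. Another spas probe set had 5825.2, 6315 and 4844.7 in C1 and 1178.8, 1187.3 and 1175.6 in C2, a difference of 2.25 (SE 0.16, adjusted p = 1.07e-11), against 0.25, -0.32 and -0.06. In both, C1 and C2 did not overlap, and C1 was the line apart: it departed from A1, B1 and D1 by -3.98 and 1.88, while C2 did not depart from A2, B2 and D2 by a called amount (-0.01 and -0.41). Opposite differences at probe sets of the same gene leave its total transcript level undetermined.

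RhoGAP71E was higher in C1 at both probe sets in the set. The first had 3938.1, 3721.9 and 2924.6 in C1 and 1765.7, 1463.3 and 1218.8 in C2, a difference of 1.26 (SE 0.17, adjusted p = 1.64e-06), and the second had 5481.1, 4986.3 and 5712.6 in C1 and 2307.4, 2596.6 and 2372.4 in C2, a difference of 1.15 (adjusted p = 6.71e-09). C1 was above C2 in every array of both. Pairs A, B and D gave 0.13, -0.43 and -0.20 at the first. Another RhoGAP71E probe set differed by 0.30 without passing the test (adjusted p = 0.0706).

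Among genes lower in C1, sls, which encodes a titin-related muscle protein, had 99.1, 118.4 and 59 in C1 and 273.5, 804.3 and 790.5 in C2. All C1 arrays were below all C2 arrays, and the difference was -2.66 (SE 0.30, adjusted p = 8.07e-08), against -0.28, -0.37 and 0.11 in A, B and D. A second sls probe set gave -0.68 (adjusted p = 0.149). mnb, a kinase of the DYRK family, had 1577.5, 1863.6 and 2138 in C1 and 3716.4, 8446.9 and 8177.5 in C2. The groups did not overlap, with C2 replicate 1 nearest to C1, and the difference was -1.78 (SE 0.27, adjusted p = 1.4e-05), against -0.08, 1.33 and 0.18. The other 3 mnb probe sets tested gave 0.07, -0.16 and -0.51, none of them called. pdm3, a POU-domain transcription factor, had 105.7, 257.3 and 568.1 in C1 and 2297, 1806.7 and 1505.2 in C2. Its difference of -2.89 (SE 0.32, adjusted p = 5.82e-08) exceeded those of A, B and D (-0.22, -0.85 and -1.15), and the arrays did not overlap. Its second probe set gave 0.29 (adjusted p = 0.172).

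mamo, a zinc-finger transcription factor of the BTB family, had 381.9, 158.6 and 192.3 in C1 and 357, 1173.2 and 1010.3 in C2. C2 replicate 1 lay among the C1 arrays, and the difference was -1.73 (adjusted p = 0.000969), against 0.22, 0.46 and 0.21. The other mamo probe set gave 0.54 (adjusted p = 0.191). Nxf3, of the nuclear RNA export factor family, had 272.5, 479.3 and 377.1 in C1 and 479.5, 1160.2 and 1315.9 in C2, a difference of -1.30 (adjusted p = 0.000994). Here C2 replicate 1 was nearly level with the highest C1 array. Hr4, a nuclear receptor of the ecdysone response, had 349.1, 437.7 and 330.9 in C1 and 659.3, 890.6 and 755.7 in C2, a difference of -1.04 (adjusted p = 0.0015), against 0.11, 0.02 and 0.18 in A, B and D. Its brighter probe set gave -0.73 (adjusted p = 0.0297), and the departure of that probe set from the other pairs was not called (adjusted p = 0.0581). The call at the brighter set was lost without C1 replicate 1 or 2 or C2 replicate 2 or 3, with adjusted p up to 0.179, while its departure was called in 6 other settings, among them without C2 replicate 1 (-1.11, adjusted p = 0.0046). C2 replicate 1 was the C2 array closest to C1 at 27 of the 42 lower probe sets of the set, against 8 and 7 for C2 replicates 2 and 3, and at 16 of the 31 higher ones, against 11 and 4.

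Among genes higher in C1, CG31436 had 1050, 938.3 and 1004.1 in C1 and 81.8, 114.1 and 150.4 in C2. The groups were far apart, with a difference of 3.15 (SE 0.41, adjusted p = 1.5e-06), while A, B and D gave -4.28, 0.68 and -1.09. CG5217 had 504.3, 676.2 and 711.2 in C1 and 37.8, 157.1 and 200.7 in C2, a difference of 2.56 (SE 0.45, adjusted p = 0.000122), against 0.11, -0.76 and -0.24. Naam, a nicotinamide amidase, had 1312, 1093 and 1111.2 in C1 and 697.9, 357 and 447.7 in C2, a difference of 1.28 (SE 0.19, adjusted p = 8.5e-06), against 0.16, -0.05 and -0.38. At these 3 genes the low line was the one apart: C2 lay below the mean of A2, B2 and D2, with log2 differences of -3.17 for CG31436, -2.13 for CG5217 and -1.30 for Naam. C1 departed from A1, B1 and D1 at CG31436 (1.55) but not by a called amount at CG5217 (0.73) or Naam (0.07).

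Scamp, a secretory carrier membrane protein, had 7435.2, 7271.5 and 7906.3 in C1 and 3889.6, 4346.4 and 4160.1 in C2. The arrays of each line were close together, and the difference was 0.87 (SE 0.09, adjusted p = 1.72e-08), against -0.16, 0.39 and -0.10. A second Scamp probe set gave -0.12. Aptx, aprataxin of DNA single-strand break repair, had 8745.6, 8849.4 and 7029 in C1 and 6261.1, 4580.5 and 4582 in C2, a difference of 0.68 (adjusted p = 8.44e-05), against 0.07, -0.60 and -0.26, with no overlap of arrays. Its second tested probe set gave -0.04 (adjusted p = 0.954), without a called departure (0.27, adjusted p = 0.725).

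**Figure D2:**
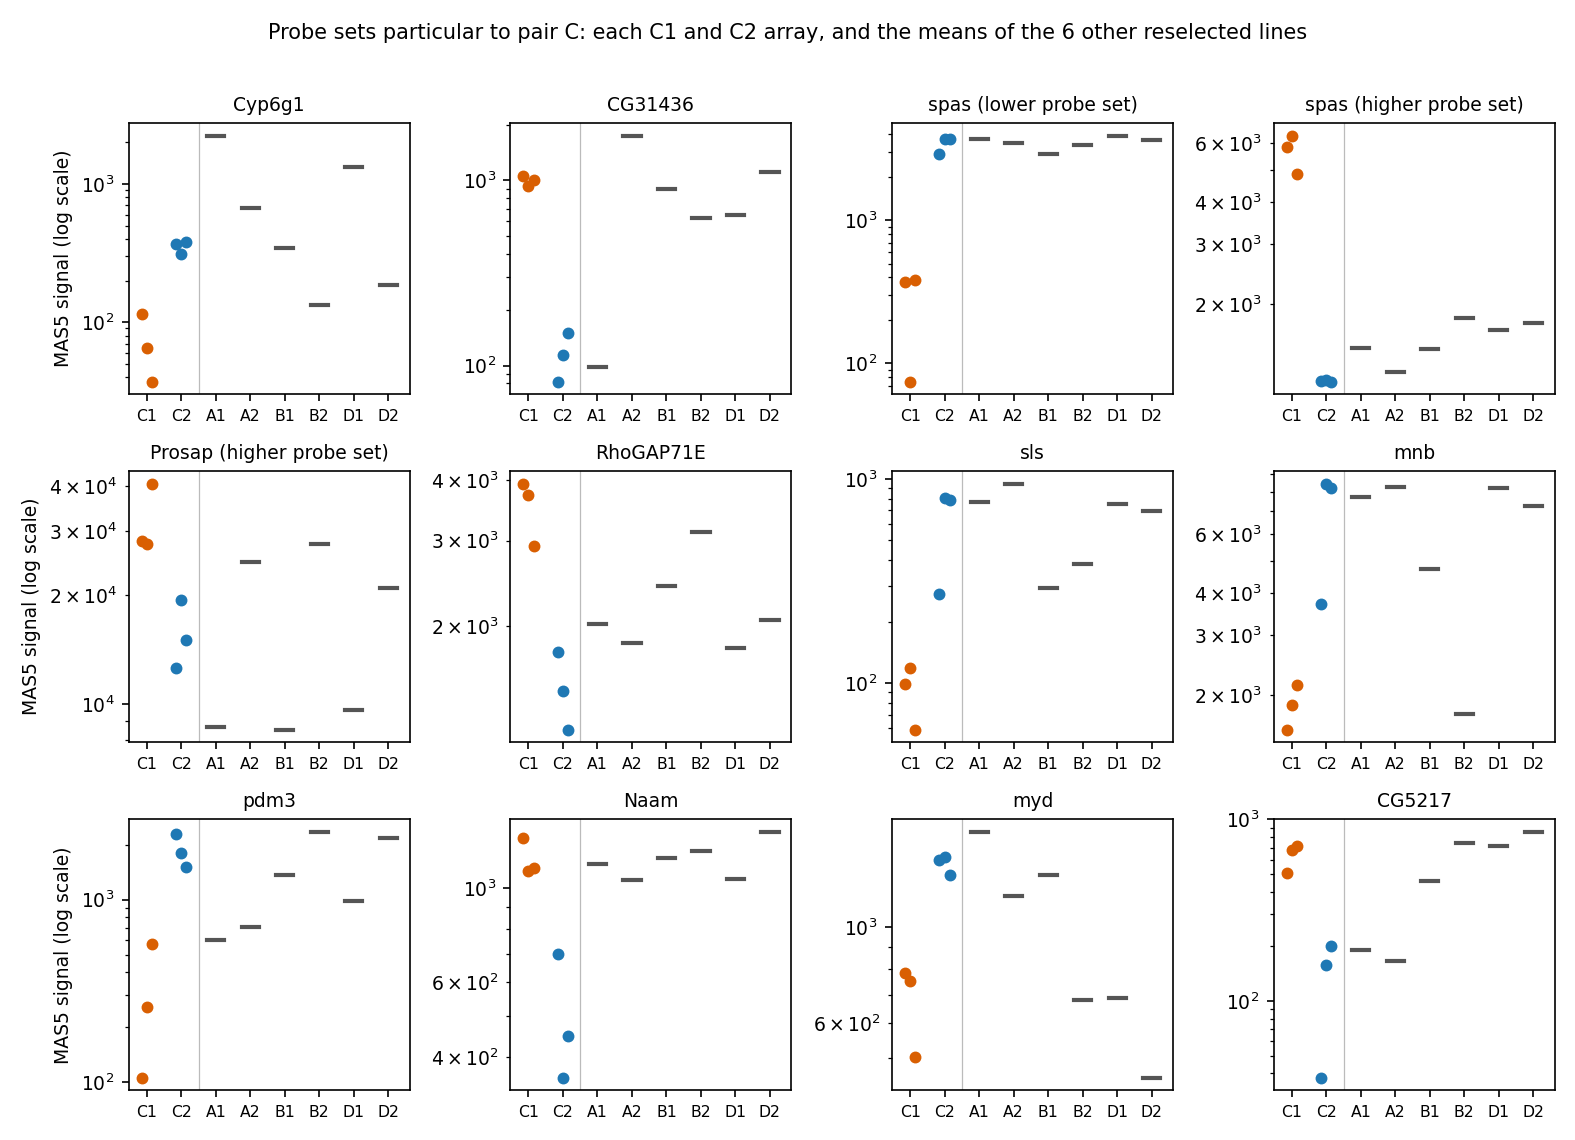
Signals (log axis, MAS5 units) of 12 probe sets particular to pair C in the 3 C1 arrays and the 3 C2 arrays, one point per array, with dashes for the means of the lines A1, A2, B1, B2, D1 and D2. The C1 and C2 arrays do not overlap at any of the 12.

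Some members of the set are neighbours on a chromosome, listed here in the order of the gene table. Oda, ornithine decarboxylase antizyme, was higher in C1 by 0.43 (adjusted p = 0.00134), and SmD3, a core spliceosomal protein encoded next to it on arm 2R, was lower by a difference of -0.31 (adjusted p = 0.000204). With median centring the SmD3 call (adjusted p = 0.134) and its departure (adjusted p = 0.267) were lost. Oda had 56997, 56362 and 63676 in C1 and 49837, 39070 and 43069 in C2, and SmD3 had 20617, 21496 and 24355 in C1 and 26352, 28406 and 27300 in C2, without overlap in either gene. FoxK and its neighbour mRpL2 on arm 3L were both lower in C1, mRpL2 by -0.33 (adjusted p = 0.0186) against 0.31, 0.34 and 0.27 in A, B and D. The mRpL2 call was lost without C1 replicate 2 or 3 or C2 replicate 2 or 3, with adjusted p up to 0.117, and the next gene, Ufd1, gave -0.08. On arm 3R, myd and vib, a phosphatidylinositol transfer protein, were both lower in C1, vib by -0.43 (adjusted p = 0.000667), with the untested gene cry between them. With median centring the vib call (adjusted p = 0.0541) and its departure (adjusted p = 0.0721) were lost. By arm, 19 members of the set lie on 3R (0.976% of the probe sets tested there), 15 on 2R (0.959%), 10 on 2L (0.727%), 9 on 3L (0.578%) and 7 on X (0.522%). The share was 0.778% over all tested probe sets, placed on an arm or not. For all C1-C2 calls the share was 14.7% on 2L, 16.2% on 2R, 17.4% on 3L, 12.3% on 3R, 15.7% on 4 and 11.4% on X.

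The next question was which line sets pair C apart. C1 departed from the mean of A1, B1 and D1 at 1440 probe sets (15.3%), 721 higher (7.68%) and 719 lower (7.66%), which was more than the corresponding count for A1 (998, 10.6%), B1 (646, 6.88%) and D1 (566, 6.03%). C2 departed from the mean of A2, B2 and D2 at 175 probe sets (1.86%), 83 higher (0.884%) and 92 lower (0.98%), fewer than A2 (690, 7.35%), B2 (579, 6.17%) and D2 (270, 2.88%). The median absolute departure ran the same way, at 0.14 in C1 against 0.12, 0.11 and 0.11 in A1, B1 and D1, and at 0.09 in C2 against 0.12, 0.11 and 0.10 in A2, B2 and D2. The C1 count was 903 without C1 replicate 3, the array with the high control ratios and salivary gland signal. That is below the 998 of A1 with all arrays, so the rank of C1 above A1 depended on this array. With median centring of the arrays, the counts were 666 for C1 and 82 for C2, and those of the other lines in that setting are not given here. A fit with blocks for pair and replicate number cannot estimate these departures of a line, because each block lies within a pair. The C2 count was 83 without C2 replicate 3 and 93 without C2 replicate 2.

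**Figure D3:**
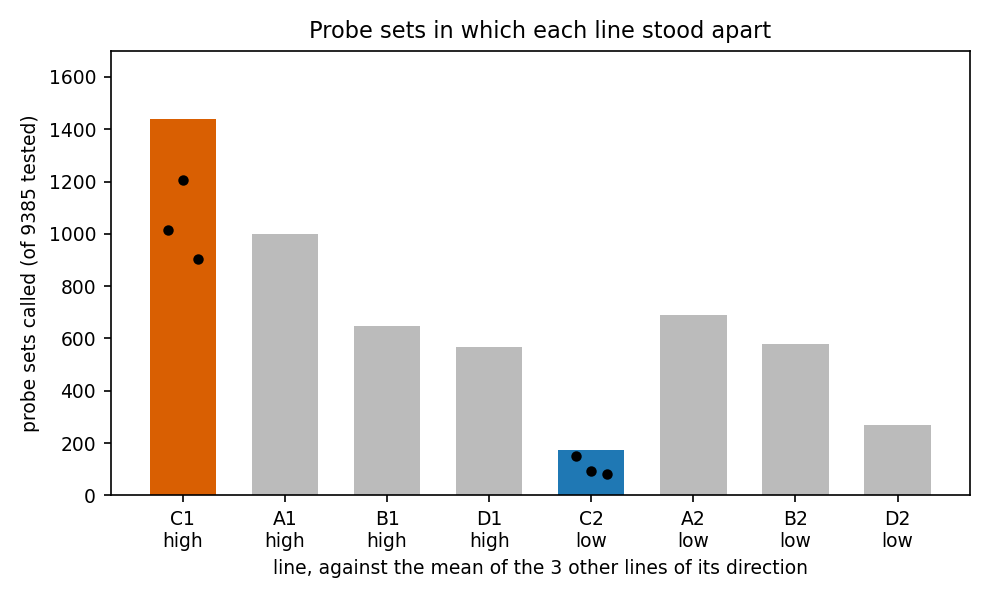
Bars give the number of probe sets at which each line departed from the mean of the 3 lines selected in the same direction, with C1, A1, B1 and D1 as high lines and C2, A2, B2 and D2 as low lines, and black points give the counts for C1 and C2 when each of their arrays was left out in turn. C1 has the tallest bar (1440) and C2 the shortest (175), and the lowest point for C1 is 903, below the A1 bar (998).

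Among the 73 probe sets particular to pair C, 52 had only C1 apart from its counterparts, 3 had only C2 apart and 18 had both, and the C1 departure was the larger at 63. The set was formed with C1 and C2 values, so these counts describe it and carry no test. Of the 73, 23 had a founder difference H-L of the opposite sign, 8 one of the same sign and 42 none that was called. The C1 mean lay outside the span between H and L at 62 of the 73 and the C2 mean at 48. Among all 1329 probe sets called in pair C, the C1 mean lay outside that span at 895 and the C2 mean at 835. Of those 1329, 63 had a founder difference of the opposite sign, 641 one of the same sign and 625 none that was called. Founder arrays and pair C arrays lie in separate runs of title numbers, so the comparison of levels with H and L crosses those runs. All 9 probe sets with the reversed sign had a called founder difference, with H-L running as in A, B and D.

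Pair C also lacked differences that the other 3 pairs shared. At 40 probe sets (0.426%) A, B and D were called with one sign and pair C departed from each of them, 20 with the high line higher in A, B and D (0.213%) and 20 with it lower (0.213%). These are referred to as missing from pair C, and the 9 reversed probe sets are among the 40. CG6310 had 2891.8, 2443 and 3427.2 in C1 and 2982.1, 2090.9 and 2687.6 in C2. The lines overlapped and differed by 0.18 (adjusted p = 0.511), whereas A, B and D gave -1.41, -1.48 and -1.17. alpha-Est10, a member of the alpha-esterase cluster, had 1120.9, 1190.8 and 1185.3 in C1 and 1082.6, 1015.7 and 1044.9 in C2, a difference of 0.15 (adjusted p = 0.653) against -1.62, -1.11 and -1.08. CG6685 had 800.3, 915.1 and 1105.2 in C1 and 1116.5, 1049.1 and 935.5 in C2, a difference of -0.15 (adjusted p = 0.579) against 1.24, 1.12 and 0.93. The lines overlapped at CG6685 and did not at alpha-Est10.

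CG6357 had 1404.7, 1171.5 and 788.7 in C1 and 2764.5, 903.9 and 1460.7 in C2, with overlap and a difference of -0.50 (adjusted p = 0.207) against 1.53, 1.42 and 1.20 in A, B and D. Cpr51A, a cuticular protein, had 2001.4, 1826.5 and 1395.8 in C1 and 2231.6, 2715.5 and 2087 in C2, a difference of -0.44 (adjusted p = 0.387) against 1.90, 1.13 and 1.09. All C1 arrays were below all C2 arrays at Cpr51A, without a called difference. Other members kept the shared direction at a smaller size. Gasp, a chitin-binding protein, had 18677, 19759 and 18518 in C1 and 12874, 13549 and 12492 in C2, a difference of 0.55 (adjusted p = 0.00247), where A, B and D gave 1.18, 1.28 and 1.33. CG31522 had 3746.1, 3357.5 and 3608.4 in C1 and 5508.3, 5366.7 and 5143.3 in C2, a difference of -0.58 (adjusted p = 0.000538), where A, B and D gave -1.40, -1.55 and -1.59. In both, C1 and C2 were fully separated, and the difference was the smallest of the 4 pairs in size.

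At 36 of the 40 probe sets H and L themselves differed, and each line was placed on a scale on which L is 0 and H is 1. The median position of C1 was 0.07 (range -0.98 to 0.75), with 29 of the 36 below 0.5, while A1, B1 and D1 had medians of 1.03, 1.04 and 0.97. C2 had a median of 0.29, against -0.03, -0.04 and -0.00 for A2, B2 and D2. The selection of these probe sets used the pair differences, so the positions are a description. At these probe sets the high line C1 had a level near that of the low founder, and the low line C2 lay between. Of the 40, 12 lie on 3L (0.77% of the probe sets tested there), 11 on 2R (0.703%), 4 on 3R (0.205%), 2 on 2L and 2 on X. Adjacent members, named after their values were seen, were CG8613 (-0.03, against -0.45, -0.53 and -0.51) with CG8617 (-0.12, against 0.22, 0.24 and 0.24), and Alg10 (-0.07, against 0.28, 0.39 and 0.37) with wls (-0.06, against 0.47, 0.38 and 0.46), which is required for Wnt secretion. The 40 fell to 26 without C2 replicate 2 and to 20 with median centring of the arrays.

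**Figure D4:**
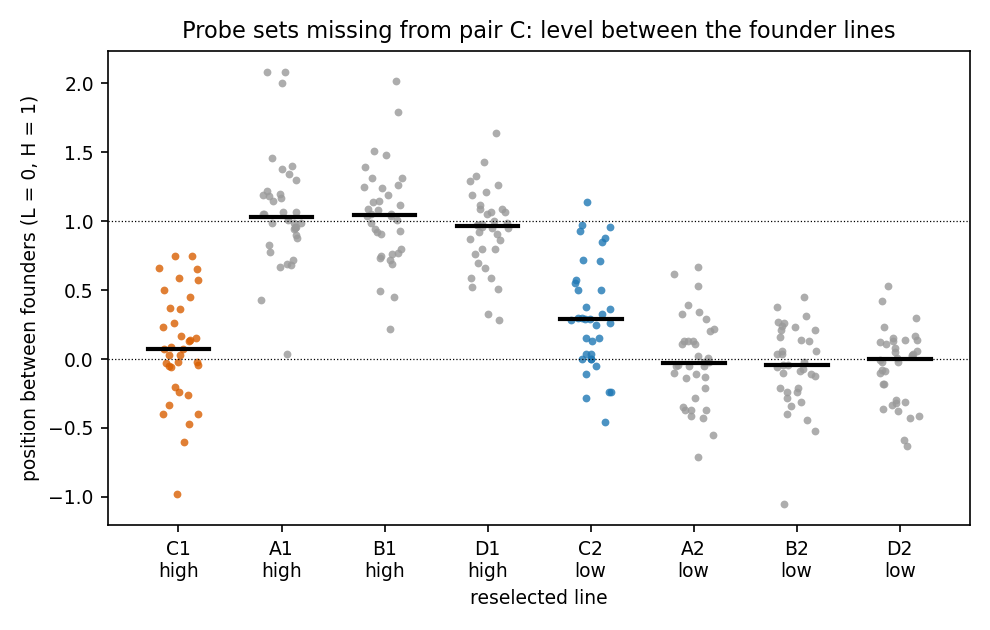
Position of each line between the founders (L at 0, H at 1) for the 36 probe sets that differed in A, B and D but less, not at all or in reverse in pair C, and at which H and L differed; points are probe sets and black bars medians. The high lines A1, B1 and D1 centre on medians of 1.03, 1.04 and 0.97, whereas C1 centres on 0.07 and C2 on 0.29.

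The largest differences between C1 and C2 were mostly shared with some of the other pairs. CG32017 had 4419.5, 4200.5 and 3271.7 in C1 and 319.5, 178 and 200.9 in C2, a difference of 4.13, with 4.11, 2.81 and 3.36 in A, B and D. Cyp6a17, another cytochrome P450, had 54.2, 152.1 and 21.1 in C1 and 1473.5, 1333.4 and 1410.6 in C2, a difference of -4.65, with -4.74, -3.22 and -1.82. GstO3, an omega-class glutathione transferase, had 7888.2, 8247.9 and 6519 in C1 and 30874, 31516 and 34213 in C2, a difference of -2.10, with -1.94, -1.63 and -1.90. These 3 had separate C1 and C2 arrays and no called departure from the mean of A, B and D (adjusted p = 0.479 for CG32017, 0.21 for Cyp6a17 and 0.121 for GstO3).

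GstE11, an epsilon-class glutathione transferase, had 28539, 30351 and 34549 in C1 and 2046.6, 1767.4 and 1822.5 in C2, a difference of 4.05 (SE 0.34, adjusted p = 1.96e-10), with -0.16, 1.90 and 4.37 in A, B and D. sut2, a sugar transporter, had 4911.9, 4857.3 and 4650.6 in C1 and 510.5, 226.6 and 496.1 in C2, a difference of 3.64 (SE 0.27, adjusted p = 1.07e-11), with -0.32, 2.62 and 2.82. Both departed from the mean of the other pairs, by 2.01 (adjusted p = 0.00105) and 1.93 (adjusted p = 8.76e-05), but pairs B and D had differences of the same sign at both genes. CG1894 had 277.6, 390.7 and 483.2 in C1 and 11461, 2103.2 and 8815.1 in C2, a difference of -3.995, with 0.69, -1.33 and -4.84, and C2 replicate 2 was the lowest of the C2 arrays. CG12129 (-4.41) followed pairs B and D (-5.80 and -5.09) and not A (0.28).

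Genes of blood cells were lower in C1. Of 13 hemocyte genes tested with limma, 7 were lower and 0 higher (8 and 0 at an unadjusted p below 0.05), with a list median of -0.71, against 7.27% of all genes called lower (6.84% higher) and a median of -0.02 over all genes. PPO1, a prophenoloxidase of crystal cells, had 235.5, 93.3 and 447.3 in C1 and 2481.5, 1416.1 and 2354.3 in C2, a difference of -3.24 (SE 0.65, adjusted p = 0.000667). eater, a phagocytic receptor, had 47.5, 46.4 and 77.2 in C1 and 562.5, 542.9 and 417.5 in C2, a difference of -3.18 (SE 0.54, adjusted p = 8.02e-05). Both separated the lines completely. PPO2 (-1.98), Pxn (-1.20), He (-0.97) and crq (-0.88) were also lower, He without a call when C1 replicate 1 or 3 or C2 replicate 1 was left out (adjusted p up to 0.0672). Pxn, peroxidasin, had 638.5, 733.7 and 551.8 in C1 and 1672.3, 1290.9 and 1460.1 in C2, again without overlap. In the fit of all arrays only NimC1, a receptor of plasmatocytes, also departed from the mean of A, B and D, where the differences were 0.63, -0.28 and 0.36. It had 503.3, 378 and 378.5 in C1 and 634.7, 688.9 and 646.9 in C2, a difference of -0.66 (adjusted p = 0.0413), and departed by -0.89 (adjusted p = 0.025). That departure was lost without C1 replicate 2 or 3 or C2 replicate 2 or 3, with adjusted p up to 0.0715, and the C1-C2 call of NimC1 was lost without any of these or C2 replicate 1, with adjusted p up to 0.123. PPO1 (adjusted p = 0.0596) and eater (adjusted p = 0.0706) did not depart by a called amount, but the PPO1 departure was called in 6 other settings (adjusted p = 0.00227 without D1 replicate 1), that of eater in 3 (0.0138 without D1 replicate 2) and that of PPO2 in 1 (0.00121 without D1 replicate 1). The list medians in A, B and D were -0.29, -0.54 and -0.59. The summed hemocyte signal was 5262, 5016 and 5534 in C1 and 14625, 10282 and 13335 in C2, with 4176 to 8810 in the other high lines and 8704 to 12926 in the other low lines. In bulk discs, fewer cells of a type and less RNA per cell cannot be told apart.

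The basement membrane and integrin list was split. Of 25 genes tested, 4 were higher and 5 lower in C1, and 5 departed from the mean of A, B and D (2 with the more positive value, 3 with the more negative), against 7.8% of all genes (4.03% and 3.77%). The list median was -0.06, and with median centring 0 more positive and 2 more negative departures were called. The 3 more negative were the secreted proteins SPARC, Col4a1 and vkg. SPARC, which binds collagen IV, had 6403.5, 6388.3 and 5955.8 in C1 and 8980.6, 8334.8 and 9235.9 in C2, a difference of -0.50 (SE 0.10, adjusted p = 0.000358) against 0.09, 0.05 and 0.09, and it is among the 73 particular probe sets. Col4a1, a collagen IV chain, had 1433.9, 1424.6 and 1562 in C1 and 2424.3, 3165.5 and 2709.4 in C2, a difference of -0.90 (SE 0.20, adjusted p = 0.0021) against -0.07, -0.11 and 0.14. vkg, the other collagen IV chain, had 1630.7, 1416.5 and 1274 in C1 and 2626.5, 2737.1 and 2281.9 in C2, a difference of -0.83 (adjusted p = 0.00151) against -0.04, -0.38 and 0.02. All C1 arrays lay below all C2 arrays in the 3 genes. The departure from the other pairs was -0.58 (adjusted p = 0.000998) for SPARC, -0.88 (adjusted p = 0.0154) for Col4a1 and -0.69 (adjusted p = 0.0337) for vkg. It was lost for Col4a1 without C2 replicate 2 (adjusted p = 0.0701), and for vkg without B1 replicate 2, C1 replicate 2 or 3, or C2 replicate 1 or 2, with adjusted p up to 0.104, and also with median centring (adjusted p = 0.115). These 3 genes are also made by hemocytes and fat body, whose marker sums above differ between C1 and C2, and their part in the result was not tested.

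In the other direction, trol, which encodes perlecan, had 8095.2, 8593.8 and 10371 in C1 and 6513.6, 5607.9 and 5231.7 in C2. It was higher in C1 by 0.64 (adjusted p = 0.000366), against 0.16, -0.10 and 0.28, with a departure of 0.53 (adjusted p = 0.0177) and no overlap. That departure was lost without C1 replicate 3 or C2 replicate 2 or 3, with adjusted p up to 0.0895. Of the other 4 trol probe sets, 1 was also higher with a called departure (0.73 and 0.74), and 1 had a departure of -0.56 (adjusted p = 0.032) without a called C1-C2 difference. Pax (0.59) and rhea (-0.45), the paxillin and talin genes of integrin adhesions, differed in pair C as in A, B and D (0.57, 0.82 and 0.55 for Pax, -0.47, -0.67 and -0.67 for rhea). mys, the beta integrin, was higher by 0.51 (adjusted p = 0.0162), a call lost without C1 replicate 1 or C2 replicate 1, and LanA, a laminin chain, by 0.21, a call lost without C1 replicate 3 (adjusted p = 0.0683).

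**Figure D5:**
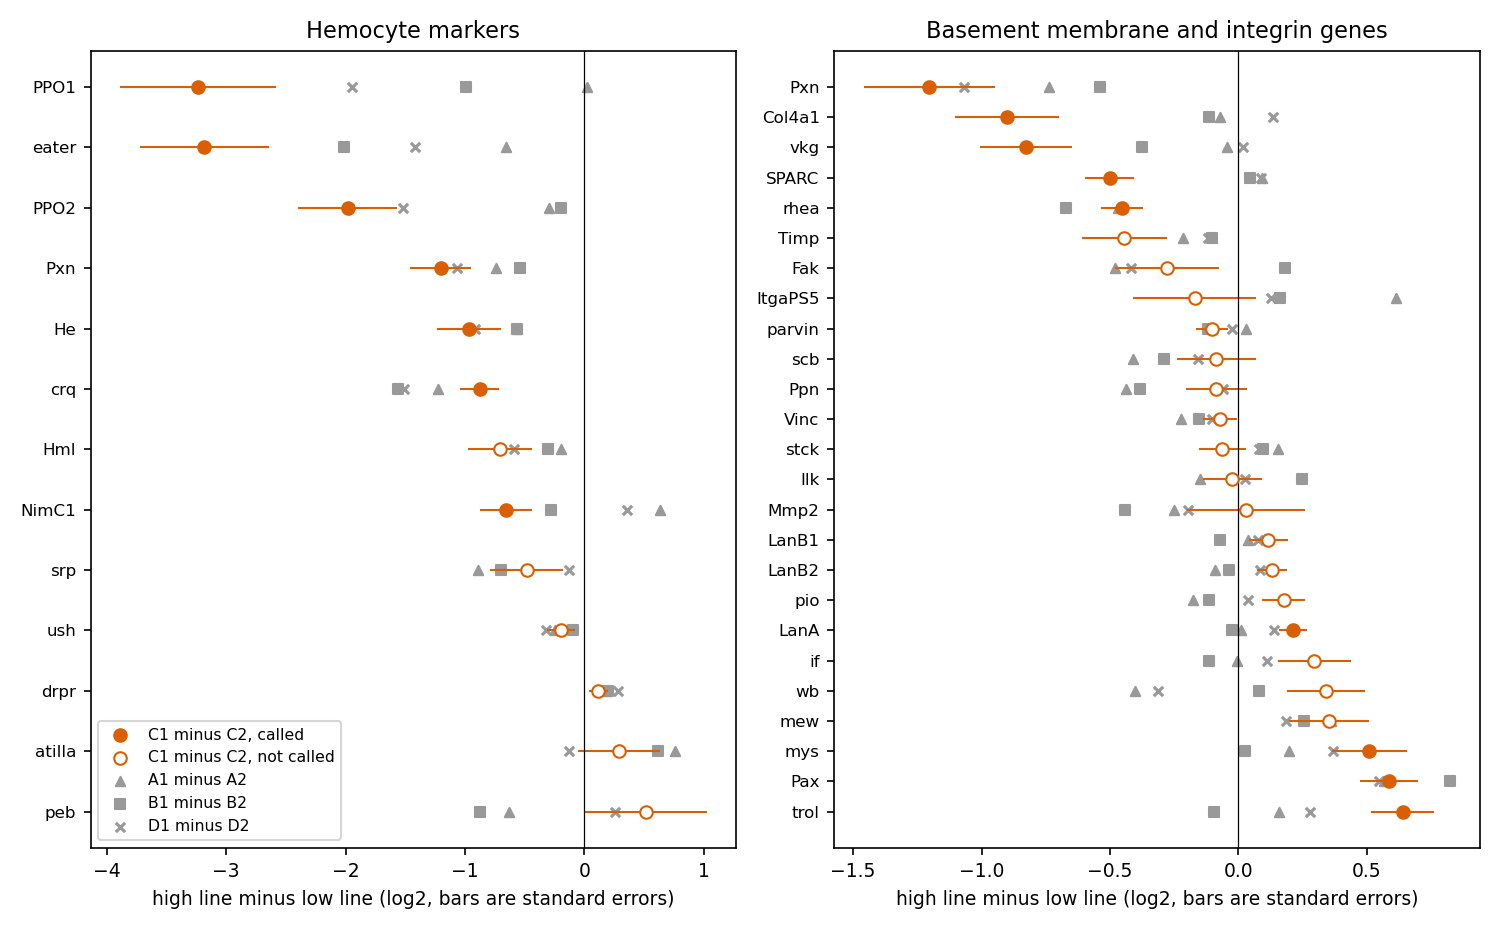
C1-C2 log2 differences with SE for the tested hemocyte genes and the tested basement membrane and integrin genes, filled where called, with the differences of pairs A, B and D in grey. PPO1 (-3.24) and eater (-3.18) lie furthest below 0, and Col4a1, vkg and SPARC lie below 0 in pair C while their grey points lie near 0.

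Of 20 vein and intervein genes tested, 4 were higher and 3 lower in C1 (6.84% and 7.27% over all genes), with a median of 0.13 (-0.02 over all genes). kni, which places the second longitudinal vein, had 4311.5, 3807.1 and 4258.9 in C1 and 4681.2, 6020.5 and 5929.8 in C2, a difference of -0.42 (adjusted p = 0.00523) against 0.28, -0.04 and 0.46. ara, an Iroquois-complex factor of vein and notum patterning, had 11881, 13664 and 11739 in C1 and 15405, 16202 and 17590 in C2, a difference of -0.40 (adjusted p = 0.00184) against 0.15, 0.14 and -0.01. C1 was below C2 in every array at both. kni and ara departed from the other pairs by -0.65 (adjusted p = 0.000608) and -0.50 (adjusted p = 0.00192). bs, the serum response factor of intervein cells, and emc, an Id-like repressor, were picked out after their values were seen. bs had 3509.3, 3843.1 and 3862.3 in C1 and 3023.5, 2787.6 and 2717.4 in C2, a difference of 0.40 (adjusted p = 0.0087) against 0.03, -0.01 and -0.30. emc had 49627, 49236 and 52441 in C1 and 43688, 38083 and 35450 in C2, a difference of 0.37 (adjusted p = 0.00184) against -0.13, -0.00 and 0.10. The arrays did not overlap at either gene, and the departures were 0.49 (adjusted p = 0.00904) and 0.39 (adjusted p = 0.00968), that of emc lost without C2 replicate 3 (adjusted p = 0.0685). With median centring, 3 vein and intervein genes were higher and 0 lower, so that the C1-C2 calls of kni (adjusted p = 0.106) and ara (adjusted p = 0.0596) were lost. The departure of ara was also lost in that setting (adjusted p = 0.0681), while that of kni was kept (adjusted p = 0.0318).

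In the Notch list, 1 of 22 genes was higher and 4 were lower in C1 (6.84% and 7.27% over all genes), with a median of -0.04, and 5 departed from the other pairs (1 more positive and 4 more negative, against 4.03% and 3.77% over all genes). The one higher was Delta, a Notch ligand, with 17065, 16291 and 19380 in C1 and 15497, 11371 and 11854 in C2. Its difference of 0.46 (adjusted p = 0.0139) stood against 0.01, -0.43 and 0.08, and a second Delta probe set gave 0.45 (adjusted p = 0.00478). The 4 lower genes were the Notch-responsive E(spl)m7-HLH (-0.42), E(spl)m4-BFM (-0.31) and E(spl)mdelta-HLH (-0.27), and Tom (-0.25). Without C2 replicate 2 or 3, and with median centring, 0 genes of the list were called lower. At the first Delta probe set the departure and the C1-C2 call were lost without C1 replicate 3, C2 replicate 2 or C2 replicate 3. The second Delta probe set departed from the other pairs by 0.78 (adjusted p = 0.000149). The departure of E(spl)m7-HLH was lost in 14 settings (adjusted p up to 0.236) and that of E(spl)m4-BFM in 6 (adjusted p up to 0.0975), and with median centring 0 genes of the list had a more negative departure.

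In the other signalling and patterning lists, where 6.84% higher and 7.27% lower are again the shares over all genes, Hedgehog had 4 of 15 genes higher and 1 lower (median 0.12), and 0 that departed from the other pairs. The Dpp list had 5 of 19 higher and 1 lower (median 0.09). The lower one was Med, the common Smad, with 185.6, 199.7 and 836.1 in C1 and 1201, 839.9 and 1151.6 in C2. C1 replicate 3 was near the C2 arrays, and the difference of -1.74 was not called without C1 replicate 1 (adjusted p = 0.0866) or C1 replicate 2 (adjusted p = 0.0631). With median centring 0 Dpp genes were higher. The Wingless list (median -0.08) had 0 of 9 higher and 1 lower, the ligand Wnt6 (-0.68, adjusted p = 0.00278). The EGFR list (median -0.00) had 0 of 16 higher and 1 lower, the feedback inhibitor kek1 (-0.59), whose call was lost without C2 replicate 2 or 3. The departure of kek1 from the other pairs was -0.86 (adjusted p = 0.00163) and was called in all 32 other settings. In this list 3 genes departed, all with the more negative value, against 3.77% over all genes. The Fat and Hippo list had 4 of 20 higher and 0 lower (median 0.07), among them wap (0.35, adjusted p = 0.00204), which is particular to pair C, and ds (0.45). Planar polarity genes were higher at 2 of 12 and lower at 1 (median 0.12). The higher Vang (0.37), a core polarity protein, departed from the other pairs by 0.33 (adjusted p = 0.0052), which was lost with median centring (adjusted p = 0.0725). Pouch and hinge genes were higher at 3 of 18 and lower at 0 (median 0.02), and notum genes higher at 1 of 14 and lower at 3 (median -0.10). Insulin and TOR genes were called at 0 of 11 by limma (median 0.09). At an unadjusted p below 0.05, limma gave 3 insulin and TOR genes higher and 0 lower, 2 EGFR genes higher, 2 pouch and hinge genes lower, and, as in the adjusted test, 0 Wingless genes higher and 0 Fat and Hippo genes lower. For the departure of Hedgehog genes from the other pairs it gave 3 more positive and 1 more negative.

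Ecdysone-response genes were higher at 3 of 23 and lower at 2, against 6.84% and 7.27% over all genes, with a median of 0.12. br, the early ecdysone-induced factor, had 73160, 71814 and 83654 in C1 and 56607, 44190 and 43867 in C2. All C1 arrays were higher, by 0.67 (adjusted p = 0.000143), against -0.04, -0.16 and 0.20 in A, B and D, and the departure was 0.67 (adjusted p = 0.00184). Another br probe set gave -0.85 (adjusted p = 0.0446), a call lost without C1 replicate 1 or 2 or C2 replicate 2 or 3 (adjusted p up to 0.277), and the other 3 gave 0.36, 0.17 and -0.16. The br probe set with -0.85 departed from the other pairs in the opposite direction to the first, by -1.10 (adjusted p = 0.036). Hr39 had 0.44 at its brightest probe set and -0.47 (adjusted p = 0.0139) at another, the second lost without C1 replicate 1 or C2 replicate 2 or 3 (adjusted p up to 0.117). That second Hr39 probe set departed from the other pairs by -0.54 (adjusted p = 0.0224). Hr4, described above, was lower.

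Of 62 cell cycle genes, 3 were higher and 3 lower, and 10 departed from the mean of A, B and D, all 10 with the more negative value, against 3.77% of all genes in that direction. With median centring 0 of the 10 were called, and without C2 replicate 2, C2 replicate 3 or C1 replicate 1 the counts were 3, 3 and 4. They were 5 without C1 replicate 2, 6 without D2 replicate 3 and 16 without B1 replicate 3. The list median was -0.03 in pair C and 0.21, 0.13 and 0.10 in A, B and D. Of the 6 called in C1-C2, Map205 (1.54) and Mis12 (1.53) were higher and Det (-0.56) was lower. Among the 10 that departed were borr (-0.44, adjusted p = 0.00104), a chromosomal passenger protein, the replication factors Orc4 (-0.44) and PCNA (-0.30), and PolA2 (-0.47), a subunit of DNA polymerase alpha. In C1-C2 itself only Orc4 (-0.30) and PCNA (-0.36) of these were called, and neither with median centring (adjusted p = 0.204 and 0.0936).

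Over all genes 6.84% were higher, 7.27% lower and the median was -0.02, and the lists of metabolism, defence and housekeeping genes are set against these shares. Of 25 glutathione transferase genes, 1 was higher (GstE11) and 10 lower, with a median of -0.26, and A, B and D had medians of -0.14, -0.09 and -0.14. Among the 10, the calls of GstD1, GstE13, GstT2 and GstT3 were lost with median centring (adjusted p = 0.545, 0.457, 0.206 and 0.255). That of GstE1 was lost without C1 replicate 3 or C2 replicate 1 or 3, with adjusted p up to 0.117. GstD3 (-0.51), GstT4 (-0.82) and GstE11 departed from the other pairs, GstD3 not with median centring (adjusted p = 0.0871). Cytochrome P450 genes were higher at 0 of 29 and lower at 2 (median -0.22). Of the mitochondrial lists, ribosomal protein genes were higher at 3 of 71 and lower at 11 (median -0.08), and oxidative phosphorylation genes higher at 0 of 61 and lower at 4 (median -0.05). Cytosolic ribosomal protein genes were higher at 0 of 38 and lower at 3 (median -0.00), and proteasome genes higher at 2 of 30 and lower at 2 (median -0.05). With median centring 1 mitochondrial ribosomal gene was lower. At an unadjusted p below 0.05, limma gave 2 P450, 1 oxidative phosphorylation and 1 cytosolic ribosomal protein gene higher. Cuticle genes were higher at 5 of 63 and lower at 3 (median -0.02), heat shock genes higher at 1 of 13 and lower at 0 (median -0.04), and Toll and Imd genes higher at 3 of 31 and lower at 1 (median -0.04). Apoptosis and JNK genes were higher at 1 of 18 and lower at 3 (median -0.00), and lipid genes higher at 2 of 21 and lower at 0 (median 0.10). At an unadjusted p below 0.05, limma gave 1 heat shock gene and 0 lipid genes lower.

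Of 27 Polycomb and Trithorax genes, 4 were higher and 0 lower by limma (7 and 1 at an unadjusted p below 0.05, and a median of 0.07), against 6.84% and 7.27% over all genes. Of these genes 4 departed from the other pairs, each with the more positive value, against 4.03% over all genes, and median centring left 2. osa, a subunit of the Brahma chromatin-remodelling complex, had 7243.8, 6185.1 and 7686.6 in C1 and 2992.9, 3093.9 and 2930.8 in C2. The lines were fully separated, by 1.22 (SE 0.11, adjusted p = 1.53e-09), against 0.64, 0.26 and 0.82, a departure of 0.65 (adjusted p = 0.00148). Of 16 dosage compensation and sex determination genes, 1 was higher and 1 lower (median 0.04). The lower one was mof, the acetyltransferase for histone H4 of the compensated X, with 2207.4, 2042.4 and 2214.6 in C1 and 2809.6, 3721.6 and 5100.9 in C2. Its difference of -0.81 (adjusted p = 0.00295) stood against -0.06, 0.24 and 0.03, with no overlap, and without C2 replicate 3 it was -0.59 (adjusted p = 0.0543).

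Markers of tissues other than the disc epithelium also differed. Lsp2, a larval serum protein of the fat body, had 4830, 4923.5 and 920.3 in C1 and 626.7, 439.3 and 466.8 in C2, a difference of 2.47 (adjusted p = 0.00166). C1 replicates 1 and 2 were far above the rest. Fbp1, a fat body receptor below the expression filter and untested, had 2015.7, 1827.6 and 109.7 in C1 and 39.2, 88.7 and 58.7 in C2, with the same C1 arrays high. The salivary gland genes Sgs3 and Sgs7 reached 1851 and 2292.4 in C1 replicate 3, and their means in D2 were 1369 and 2341.8. The neuronal gene elav had 826, 933 and 1408 in C1 and 1048, 3458 and 3090 in C2. Its means were 2457 in A1, 2883.6 in A2, 2949.1 in D1 and 2521.6 in D2, and 1539.5 in B1 and 948.4 in B2. The C1 arrays and C2 replicate 1 were thus low beside pairs A and D, and pair B was low too. Of 12 muscle precursor genes, 1 was lower (sls) and 0 higher (median 0.01). Tracheal genes were higher at 1 of 10 and lower at 2 (median 0.09), fat body genes higher at 1 of 2, neural genes lower at 2 of 5 (median 0.00), and salivary gland and gut genes and testis genes called at 0 of 5 (median -0.19) and 0 of 2 by limma. At an unadjusted p below 0.05 the salivary gland, gut and testis genes still had 0, the neural genes had 0 higher, and 1 muscle precursor gene was higher.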

How the data were processed

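Members, gene lists and tests were chosen with earlier results of these data known. The authors deposited array intensities as MAS5 signals, per the submitters' processing notes. The MAS5 version is not given in the sources used here. From the 18952 probe sets, 183 controls were removed, and those with a mean log2 over all 36 arrays at or above the median were tested (filter at a signal of 259.72). limma 3.58.1 in R 4.3.3 fitted line means over all 36 arrays, without a block, with a trended prior. Lines were taken from array titles. Gene names came from the platform annotation, checked against the gene table of assembly Release 6 plus ISO1 MT (13544 of 13647 probe sets with 1 symbol were in it, and 0 symbols changed). Lists use the brightest probe set of each of 7222 genes. Named were up to 12 probe sets each way with the largest departure in the set particular to pair C, all reversed ones, 5 each way of the missing ones, some of the 8 each way with the largest C1-C2 difference, neighbouring members, and up to 3 called members of each list. Other list members named were chosen after their values were seen. Other settings were a pseudocount, no filter or a higher one, median centring, quantile normalization, no trend, 24 or 6 arrays, a replicate block and leaving out each array. The fit was tested on simulated data.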

Additional observations from a re-analysis of the deposited data

Results flagged for a closer look

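The probe sets of the set particular to pair C with the largest departures are collected here because the test of the difference between pairs was passed at each, and all values are C1-C2 minus the mean difference of pairs A, B and D on the log2 scale. With the more positive value in pair C were CG31436 (4.72), CG5217 (2.85), Prosap (2.48), spas (2.30), RhoGAP71E (1.42 and 1.13), Naam (1.37), Aps (1.36), CG34398 (1.10), CRMP (1.07), Aptx (0.95) and Scamp (0.82). With the more negative value were Cyp6g1 (-4.69), spas (-3.97), sls (-2.48), mnb (-2.26), pdm3 (-2.15), mamo (-2.03), myd (-1.78), Nxf3 (-1.77), Prosap (-1.65), Obp56a (-1.23), Hr4 (-1.15), FoxK (-1.06) and CG7600 (-0.79). Groups of 3 arrays are too small to be tested for a single outlying array.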

How the results depend on the processing

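Centring each array on its median gave 745 C1-C2 calls (55.2% higher in C1, against 48% as deposited), 361 departures from the mean of A, B and D, 32 probe sets particular to pair C, 20 missing (30% higher in A, B and D, against 50%), 666 with C1 apart and 82 with C2 apart (29.3% higher, against 47.4%). It left 6 reversed probe sets, 66.7% of them higher in C1, against 44.4%. The 6 arrays of pair C alone gave 671 C1-C2 calls, and the 24 reselected arrays gave 25 missing probe sets. The causes were not tested. Leaving out each array in turn gave 837 to 1393 C1-C2 calls, 414 to 987 departures (470 without C2 replicate 2, 414 without C2 replicate 3), 37 to 141 particular, 6 to 12 reversed, 26 to 49 missing, 903 to 1696 with C1 apart and 83 to 193 with C2 apart. Without A2 replicate 3 the counts were 698 departures, 66 particular and 34 missing.

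Same-numbered arrays of C1 and C2 did not deviate together (correlations of 0.03, -0.05 and 0.03), so replicate numbers do not pair the samples. With a replicate block there were 1336 C1-C2 calls, 727 departures, 84 particular, 11 reversed and 46 missing. That fit also returned 513 with C1 apart and 133 with C2 apart. Each block lies within a pair, so a line cannot be compared there with lines of other pairs. The 513 and 133 are therefore not a check on the counts of C1 and C2 apart. Among the named genes, C1-C2 kept its direction and its state, called or not called, in 1512 refits, lost a call in 231 and gained one in 2. The departure kept its direction and state in 3646 refits, lost a call in 90 and gained one in 49, with 0 reversed. Signal near background limits dim probe sets such as Cyp6g1 in C1 and eater in C1, for which the size of a difference is least certain.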
